A study of Mus musculus with 24 samples.

Results

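Cultures of mouse fetal cortex labelled 13 days (13 d) were compared with cultures of the same region labelled 48 hours (48 h), both kept at 21% O2, the oxygen level of room air. The comparison used 6 of the 24 arrays of the series, chosen by their labels alone, with 3 arrays per group, and every probe set that carried a gene symbol, which was 23410 of 28856. Both groups were primary cultures that the labels call neural stem cells, taken from the cortex of C57Bl/6 mice at embryonic day 14 and grown in expansion medium that was renewed several times a week. They carried no transgene or drug, and differed in the labels only in the time after dissection at which RNA was taken, 13 d or 48 h. The other arrays held cortex cultures of both times at 3% O2, and midbrain cultures of both times at both oxygen levels. RNA came from a culture well, was copied into biotin-labelled cDNA and was hybridised to a whole-transcript mouse gene array, 1 sample per array. Whether the arrays of a group stand for separate animals or cultures is not stated in the labels, and the p-values therefore reflect array-to-array spread, which may be technical. Culture times are given throughout as labelled. The difference between them ran opposite to that in midbrain, as given in full further on, and whether the cortex time labels were exchanged at some step was not tested. Every direction rests on these labels and would turn with them.

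In the developing cortex, radial glia divide at the ventricle and give rise first to neurons, either directly or through Eomes-positive intermediate progenitors, and later to astrocytes and oligodendrocyte precursors. Notch signalling, in which Delta and Jagged ligands on one cell activate receptors on its neighbour and induce Hes and Hey repressors, keeps progenitors from differentiating, while proneural factors drive neurogenesis. Growth factors such as FGF2 and EGF hold isolated progenitors in division in culture, and the cells they yield shift with time in culture towards glia.

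All values are log2 array signals as deposited by the authors, and differences are 13 d minus 48 h with the standard error (SE) of the fit, so that 1 unit is a doubling. The words rose and fell are used where the Benjamini-Hochberg adjusted p of limma, a linear model with a variance shared across genes, was under 0.05 among the 23410 probe sets. Array signals of different probe sets are not on one scale, so levels are compared within a gene only. In bulk RNA, fewer cells of a type and less RNA per cell cannot be told apart.

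The 6 arrays had medians of 7.39 to 7.40 at 13 d and of 7.35 to 7.39 at 48 h. Arrays of the 13 d group correlated with each other at 0.997 to 0.998. In the 48 h group, replicates 2 and 3 correlated at 0.998, but replicate 1 stood apart from them, at 0.986 and 0.992. Pairs of a 13 d and a 48 h array gave 0.965 to 0.969. Replicate 1 of 48 h was low in glial genes: Apoe, a lipid carrier made by astrocytes, had 9.83 in it, against 12.73 and 12.44 in replicates 2 and 3, and Enpp6, an enzyme of newly formed oligodendrocytes, had 6.20 against 10.01 and 9.92. It was high in some others, such as Itga4, an integrin subunit, with 10.03 against 6.90 and 8.75. The median member of the oligodendrocyte myelin list was 1.28 log2 units lower in it than in the mean of replicates 2 and 3, of the astrocyte list 1.11 lower and of the oligodendrocyte precursor list 0.90 lower, while the median S phase gene was 0.60 higher. Counts of list members are therefore also given without this array where either direction moved by 2 genes or more.

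Region markers were checked first. Emx1, a transcription factor of the dorsal forebrain, averaged 8.01 ± 0.03 in 13 d cortex and 7.60 ± 0.08 in 48 h cortex (SD, n = 3 each), against 7.78 ± 0.13 and 7.73 ± 0.19 in midbrain cultures of 13 d and 48 h at 21% O2, so it did not separate the regions. Tbr1, the deep-layer cortical neuron factor, averaged 11.44 ± 0.10 in 13 d cortex and 6.86 ± 0.26 in 48 h cortex, against 6.19 ± 0.03 in 13 d and 6.12 ± 0.04 in 48 h midbrain. En2, a homeobox gene of the midbrain and anterior hindbrain, averaged 6.03 ± 0.09 in 13 d cortex and 7.67 ± 0.33 in 48 h cortex, against 8.91 ± 0.08 in 13 d and 9.90 ± 0.17 in 48 h midbrain. Neurod6, a bHLH factor of cortical pyramidal neurons, averaged 10.49 ± 0.30 in 13 d cortex and 6.06 ± 0.34 in 48 h cortex, against 5.50 ± 0.09 in 13 d and 6.81 ± 0.46 in 48 h midbrain. The 13 d cortex arrays thus had the highest mean of Tbr1 and Neurod6 and the lowest of En2. The 48 h cortex arrays were less distinct from midbrain: their mean of Tbr1 was above both midbrain means and that of En2 below both, but Neurod6 was below 48 h midbrain and Emx1 below both midbrain groups.

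Of the 23410 probe sets, 3929 were higher in 13 d cultures (16.8%) and 4771 were lower (20.4%), together 37.2%. These shares are the background for the list counts that follow. By gene list, neuronal cytoskeleton genes rose in 18 of 20 cases, while oligodendrocyte precursor, astrocyte and hypoxia target genes fell in 17 of 20, 19 of 25 and 23 of 30. Changes over 1 log2 unit numbered 743 among the rises and 627 among the falls, while 4864 of the 8700 called probe sets (55.9%) differed by less than 0.5. The 3 arrays of one group lay wholly above those of the other for 10501 probe sets (44.9%), and 8092 (34.6%) did so and also passed the threshold. The median difference over all tested probe sets was -0.03. Without replicate 1 of 48 h, 7711 of the 8700 calls (88.6%) remained and 964 others were added.

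**Figure D1:**
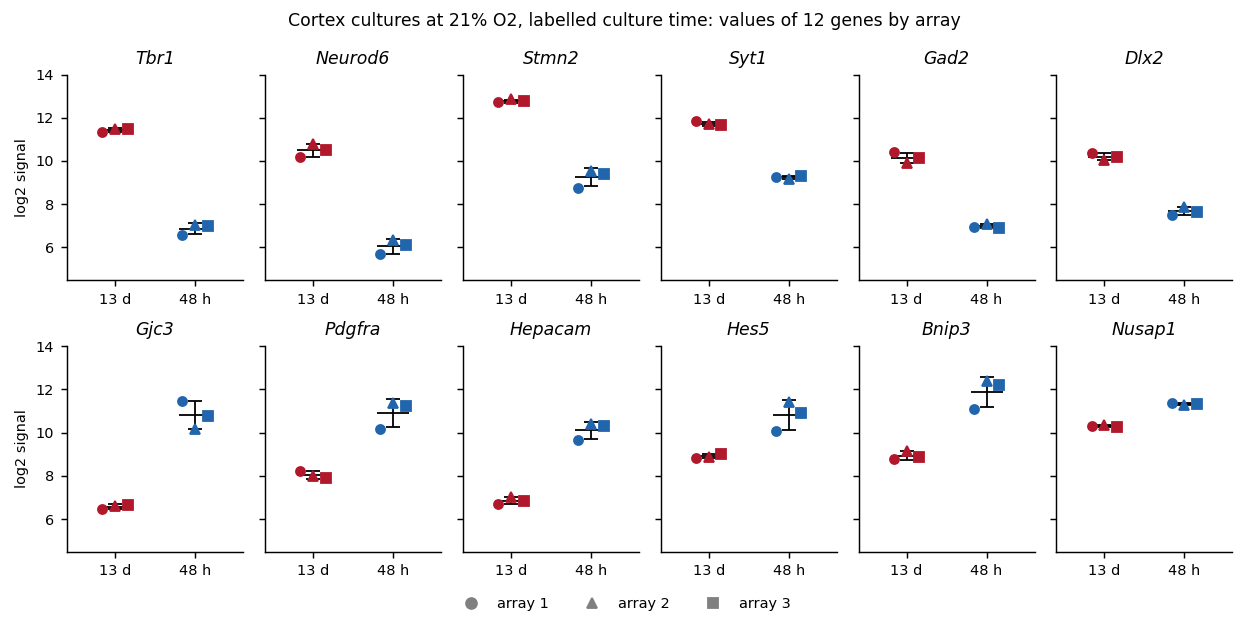
Log2 signal of 12 genes in each array of cortex cultures at 21% O2, 13 d left and 48 h right, with the array number as the marker and the mean with its SD as the bar. Tbr1, Neurod6, Stmn2, Syt1, Gad2 and Dlx2 lay higher in all 3 arrays of 13 d, and Gjc3, Pdgfra, Hepacam, Hes5, Bnip3 and Nusap1 lower.

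The neuronal cytoskeleton was higher at 13 d almost throughout: 18 of 20 measured genes of that list rose and 0 fell, with a median difference of 1.87. Stmn2, a microtubule regulator of growing axons, had 12.71, 12.85 and 12.76 in the 13 d arrays, against 8.76, 9.55 and 9.40 in the 48 h arrays. Every 13 d array lay more than 3 units above every 48 h array, a difference of 3.53 ± 0.18 (limma adjusted p = 8.9e-12), or 11.6-fold. Tubb3, the neuronal beta-tubulin, had 11.26, 11.45 and 11.52 at 13 d, against 7.82, 8.44 and 8.19 at 48 h, a rise of 3.26 ± 0.20 (limma adjusted p = 7.4e-11). Dcx, the microtubule protein of migrating young neurons, had 12.55, 12.45 and 12.48 at 13 d, against 8.76, 10.38 and 10.02 at 48 h, a rise of 2.77 ± 0.30 with the lowest value in the 48 h array that stood apart. The neurofilament genes Nefl, Nefm and Nefh rose by 2.16, 1.15 and 0.20, and the axonal kinesins Kif5c and Kif5a by 2.98 and 2.23. Gap43, a growth cone protein, and Tubb2b, a tubulin also made by progenitors, did not pass, with differences of 0.30 and 0.06.

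RNA-binding proteins that set the splicing and stability of neuronal transcripts moved with the cytoskeleton, 15 of 17 rising and 1 falling, with a median of 1.77. Celf4 had 11.00, 10.87 and 10.99 at 13 d, against 8.39, 8.75 and 8.62 at 48 h, a rise of 2.37 ± 0.08. Rbfox1, Celf3, Srrm4 and Elavl3 rose by 2.70, 2.65, 2.17 and 2.10. Ptbp2, the neuronal splicing repressor that follows Ptbp1 in development, rose by 0.50 ± 0.07. Ptbp1 itself differed by 0.14 (limma adjusted p = 0.25), and by -0.28 in another probe set (limma adjusted p = 0.1), so neither passed. Nova1 was the member that fell, by 0.74. Among subunits of the BAF chromatin remodelling complex, 14 of 20 rose and 2 fell, with a median of 0.30. Actl6b, the subunit of neurons, had 10.44, 10.40 and 10.34 at 13 d, against 7.14, 7.54 and 7.64 at 48 h, a rise of 2.95 ± 0.12 (limma adjusted p = 2.2e-13). Its progenitor counterpart Actl6a had 11.15, 11.14 and 10.99 at 13 d, against 11.36, 10.69 and 10.97 at 48 h, so the groups overlapped and the difference of 0.09 ± 0.12 did not pass. The neuronal subunits Dpf1 and Ss18l1 rose by 0.89 and 1.28, and their partners of progenitors, Dpf2 and Ss18, fell by 0.38 and 0.28. Phf10 differed by 0.07 and did not pass.

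Genes of the synaptic vesicle rose in 20 of 23 cases and fell in 2, with a median of 1.44. Syt1, the calcium sensor of fast release, had 11.83, 11.70 and 11.65 at 13 d, against 9.27, 9.17 and 9.28 at 48 h, a rise of 2.49 ± 0.09 (limma adjusted p = 9.1e-14). Syt4, Rab3c, Sv2b and Snap25 rose by 3.52, 2.50, 2.32 and 2.22, and the active zone proteins Pclo and Bsn by 1.68 and 1.44. Vamp1 and Syt11 fell, by 0.29 and 0.39. Both vesicular glutamate transporters rose, Slc17a6 by 2.36 ± 0.10 and Slc17a7 by 1.30 ± 0.10.

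Glutamate receptors and their scaffolds rose in 14 of 26 cases (53.8%) and fell in 5, with a median of 0.34. The share that fell, 19.2%, was near the 20.4% of all probe sets. Without replicate 1 of 48 h 11 were higher. Grin2b, the NMDA receptor subunit of immature synapses, had 10.84, 10.87 and 10.81 at 13 d, against 7.30, 7.77 and 7.82 at 48 h, a rise of 3.21 ± 0.12. The AMPA receptor subunit Gria1 and the scaffold Dlg2 rose by 3.14 and 3.06. Those that fell were Grm3, Grm5, Grin3a, Grik4 and Gria3, by 0.98, 0.75, 0.92, 0.73 and 0.50. Grm3 and Grm5, metabotropic receptors, are also made by astroglia. In Grm3 the 48 h array that stood apart, at 9.70, lay within the 13 d values of 9.33, 9.71 and 9.53.

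Inhibitory transmission genes rose in 12 of 17 cases and fell in 1, with a median of 1.28. Gad2, which makes GABA from glutamate, had 10.40, 9.90 and 10.13 at 13 d, against 6.97, 7.07 and 6.91 at 48 h, a rise of 3.16 ± 0.11 (limma adjusted p = 4.2e-14), or 8.94-fold. Its paralogue Gad1 rose by 2.17 ± 0.09 and the vesicular GABA transporter Slc32a1 by 1.54. Glra2, the glycine receptor subunit of fetal neurons, had 10.61, 10.77 and 10.45 at 13 d, against 6.29, 7.00 and 6.80 at 48 h, the third largest rise among the named genes at 3.91 ± 0.17. Slc12a5, the chloride exporter of maturing neurons, rose by 1.04. The one that fell was Gabrg1, a GABA receptor subunit, by 1.40.

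Voltage-gated channels rose in 21 of 25 cases, with a median of 0.92. The sodium channels Scn2a and Scn3a rose by 2.28 and 2.13, and the calcium channel Cacna1e by 2.51 ± 0.11. All 4 channels that fell carry potassium: Kcnj10, the inward rectifier of glia, fell by 2.29, Kcna2 and Kcnd2 by 1.25 each, and Kcnd3 by 0.29. Axon guidance genes rose in 25 of 35 cases and fell in 6, with a median of 1.13. Plxna4, a semaphorin co-receptor, had 11.61, 11.59 and 11.69 at 13 d, against 8.26, 8.52 and 8.22 at 48 h, a rise of 3.30 ± 0.13. The adhesion molecules L1cam and Cntn2 of growing axons rose by 3.14 and 2.64, whereas Cntn1 and Ncam2 fell by 1.15 and 1.48. Neuropeptide and granule genes rose in 15 of 24 cases and fell in 2, with a median of 0.76, and included Sst with 2.95, Npy with 2.06 and Tac1 with 1.64. The pair that fell were Ntrk2, the BDNF receptor that astrocytes also carry, by 0.88 and Nrn1 by 0.71.

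Among genes outside these lists, Hecw1, a ubiquitin ligase, had 10.82, 10.82 and 10.80 at 13 d, against 6.76, 7.31 and 7.27 at 48 h, a rise of 3.70 ± 0.12. Islr2, a membrane protein of developing axons, rose by 3.86 ± 0.17, and Igfbpl1 and the kinase gene Nuak1 by 3.51 ± 0.15 and 3.40 ± 0.14. Adgrl2, an adhesion G protein-coupled receptor of synapses, rose by 3.50 ± 0.09. All 8 probe sets with that symbol alone rose, by 0.66 to 3.50.

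**Figure D2:**
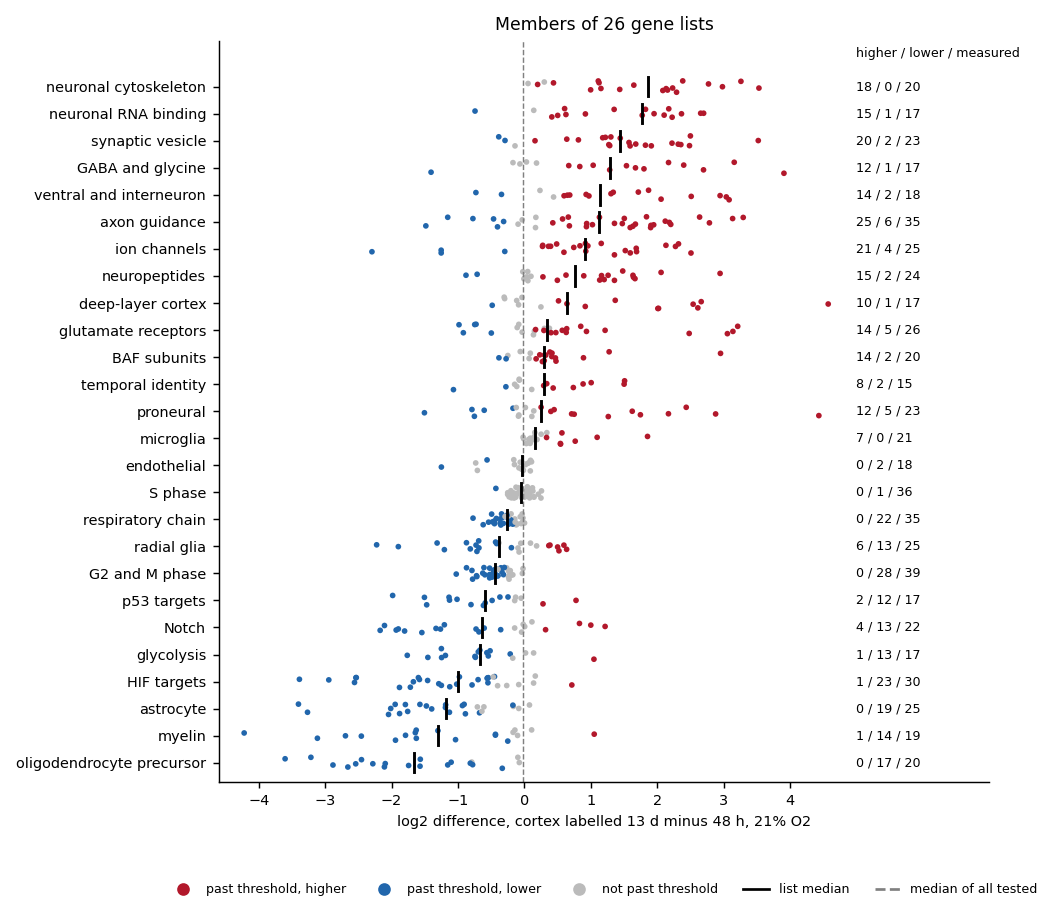
Log2 difference of 13 d minus 48 h at 21% O2 (x axis) for the measured members of 26 gene lists (points, coloured where past the threshold), with the list median as a bar, the median of all tested probe sets as a dashed line, and counts of higher, lower and measured members at the right. Neuronal lists lie mostly on the higher side, with 18 of 20 cytoskeleton genes, and precursor, astrocyte, hypoxia and G2/M lists mostly on the lower side.

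Factors that define cortical projection neurons were among the largest rises. Tbr1 had 11.33, 11.50 and 11.49 at 13 d, against 6.56, 7.03 and 7.00 at 48 h, a rise of 4.57 ± 0.10 (limma adjusted p = 2.9e-17), or 23.8-fold. Neurod6 had 10.19, 10.78 and 10.49 at 13 d, against 5.69, 6.36 and 6.11 at 48 h, a rise of 4.43 ± 0.20 (limma adjusted p = 9.2e-13). No array of one group came within 3 units of the other for either gene. In the deep-layer list 10 of 17 rose and 1 fell, with a median of 0.64, and without replicate 1 of 48 h 3 fell. Fezf2 and Bcl11b, which specify subcortical projection neurons, rose by 2.66 and 2.54, and Foxp2, of corticothalamic neurons, by 2.01 ± 0.07. Upper-layer genes moved less, with 5 of 13 higher, 2 lower and a median of 0.37. Unc5d, a netrin receptor of upper-layer cells, rose by 1.47 ± 0.15, and Cux2 by 0.37, while Cux1 differed by 0.02. Without replicate 1 of 48 h these counts were 6 and 0. Genes of Cajal-Retzius cells, the earliest neurons of the cortical surface, rose in 5 of 7 cases, Reln by 2.28 ± 0.24 and Calb2 by 2.01 ± 0.23, though both are also made by interneurons, and Trp73, another of their markers, differed by 0.20 and did not pass.

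Proneural and early neuronal factors rose in 12 of 23 cases (52.2%) and fell in 5, with a median of 0.25. The share that fell, 21.7%, was near the 20.4% of all probe sets. Besides Neurod6, the later-acting Myt1l, Neurod2 and Neurod1 rose by 2.88, 2.44 and 2.17. Eomes, of intermediate progenitors, had 7.69, 7.91 and 8.03 at 13 d, against 6.57, 6.56 and 6.70 at 48 h, a rise of 1.26 ± 0.12. Neurog2, which starts the excitatory programme, rose by 0.25 and Neurog1 differed by -0.12 and did not pass. Gadd45g, Mfng and Btg2, found in progenitors committed to neurogenesis, fell by 0.75, 0.60 and 1.50, and Neurod4 and Ebf3 by 0.17 and 0.79.

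Genes of the ganglionic eminences, the ventral source of cortical interneurons, rose in 14 of 18 cases and fell in 2, with a median of 1.14. Dlx5 had 10.03, 9.72 and 9.98 at 13 d, against 6.91, 6.95 and 6.74 at 48 h, a rise of 3.04 ± 0.11 (limma adjusted p = 4.8e-14). Dlx1, Dlx2 and Dlx6, its homeobox relatives, rose by 3.08, 2.51 and 1.34, and Lhx6, of medial eminence interneurons, by 1.72. The progenitor factors Gsx1 and Gsx2 were the members that fell, by 0.73 and 0.34, and Nkx2-1 differed by 0.23 and did not pass. General forebrain genes were mixed, 4 of 11 higher (36.4%) and 2 lower (18.2%, near the 20.4% of all probe sets) with a median of 0.07. Without replicate 1 of 48 h the counts were 2 and 2, and without replicate 3 of 48 h 3 and 0. Among midbrain genes 2 of 19 fell (10.5%, against 20.4% of all probe sets) and 0 rose, and in the fit of the 6 arrays alone 4 fell. En2 had 6.11, 6.06 and 5.93 at 13 d, against 8.04, 7.42 and 7.54 at 48 h, and fell by 1.64 ± 0.31 (limma adjusted p = 0.00022), and En1 fell by 0.81 ± 0.23. Without replicate 1 of 48 h, which had the highest value of both, En1 differed by -0.56 and no longer passed.

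**Figure D3:**
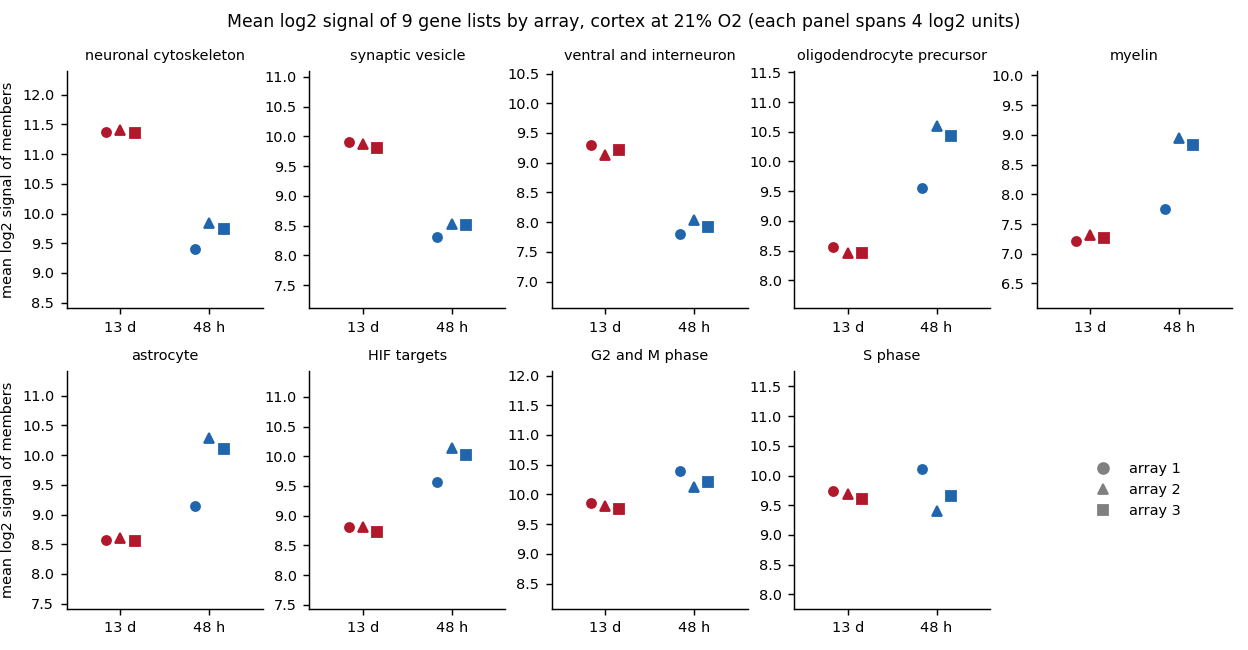
Mean log2 signal over the measured members of 9 gene lists in each of the 6 arrays, 13 d left and 48 h right. The neuronal lists lay higher in all 3 arrays of 13 d, the glial and hypoxia lists lower, and replicate 1 of 48 h lay apart from its group in the glial and S phase lists.

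Oligodendrocyte precursor genes were lower at 13 d, with 17 of 20 falling, 0 rising and a median of -1.66. The mean over the list was 8.47 to 8.57 in the 13 d arrays, against 9.56 to 10.59 in the 48 h arrays. Pdgfra, the receptor for their growth factor PDGF-A, had 8.23, 7.99 and 7.91 at 13 d, against 10.18, 11.37 and 11.22 at 48 h, and fell by 2.88 ± 0.31 (limma adjusted p = 2.3e-07). Gpr17, a receptor of precursors about to differentiate, had 7.12, 7.23 and 6.88 at 13 d, against 9.22, 11.54 and 11.28 at 48 h, and fell by 3.60 ± 0.42. The lineage factors Sox10, Nkx2-2, Olig1 and Olig2 fell by 2.54, 2.45, 1.10 and 0.78, and the proteoglycan gene Cspg4 by 2.09 ± 0.10. Luzp2 had a difference of -0.79 that did not pass.

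In the myelin and differentiating oligodendrocyte list 14 of 19 fell and 1 rose, with a median of -1.30. Gjc3, a connexin of oligodendrocytes, had 6.47, 6.61 and 6.67 at 13 d, against 11.46, 10.16 and 10.79 at 48 h, and as the largest change downwards of the named genes fell by 4.22 ± 0.35 (limma adjusted p = 8.5e-09), or 18.6-fold. Cnp, an enzyme of myelin sheaths, had 8.85, 8.90 and 8.61 at 13 d, against 11.33, 12.30 and 12.07 at 48 h, and fell by 3.12 ± 0.21. Structural myelin genes were less uniform: Mbp had 7.63, 7.97 and 7.67 at 13 d, against 7.26, 9.68 and 9.44 at 48 h, so that 1 array of 48 h lay below the 13 d values. It fell by 1.04 ± 0.38 (limma adjusted p = 0.04), and without that array it fell by 1.80. Mog and Mobp, of mature myelin, differed by -0.10 and -0.14 and did not pass. Nfasc, which neurons make as well, was the member that rose, by 1.05, and without replicate 1 of 48 h the list had 15 lower and 0 higher. Fitted to the 6 arrays alone, 9 members fell and 0 rose. Bmp4, a ligand that favours glial over neuronal fates, had 6.80, 6.80 and 6.83 at 13 d, against 7.39, 11.50 and 11.20 at 48 h, and fell by 3.22 ± 0.68 (limma adjusted p = 0.00069), and without replicate 1 of 48 h it fell by 4.54.

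Astrocyte genes fell in 19 of 25 cases and rose in 0, with a median of -1.19, and without replicate 1 of 48 h 22 fell. Hepacam, an adhesion protein of astrocytes, had 6.71, 7.01 and 6.85 at 13 d, against 9.67, 10.39 and 10.30 at 48 h, and fell by 3.27 ± 0.19 (limma adjusted p = 3.9e-11), or 9.61-fold. Its membrane partner Mlc1 fell by 1.95 ± 0.11, Ppp1r3c, which targets a phosphatase to glycogen, by 3.40 ± 0.32, and the folate enzyme gene Aldh1l1 by 1.57 ± 0.27. Gfap, the intermediate filament of astrocytes, had 6.13, 6.23 and 6.30 at 13 d, against 6.06, 8.14 and 8.01 at 48 h. The groups overlapped through replicate 1 of 48 h, and Gfap fell by 1.19 ± 0.35 (limma adjusted p = 0.01), and without that array it fell by 1.86. Gja1 and Clu, at -0.17 and -0.08, did not pass.

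Radial glia and neural stem cell genes were mixed, 13 of 25 lower and 6 higher, with a median of -0.38. Sox2, the stem cell factor, had 11.57, 11.57 and 11.48 at 13 d, against 12.19, 12.32 and 12.24 at 48 h, and fell by 0.71 ± 0.07. Ednrb and Slc1a3, which astrocytes share, fell by 2.22 and 1.31. Sox1, Prom1, Hopx and Gli3 rose, by 0.64, 0.60, 0.52 and 0.50. Nes, the intermediate filament of progenitors, had 11.47, 11.52 and 11.42 at 13 d, against 12.16, 11.57 and 11.83 at 48 h, and its difference of -0.38 did not pass (limma adjusted p = 0.061), nor did those of Fabp7 and Vim at -0.10 and 0.09.

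In the Notch pathway 13 of 22 genes fell and 4 rose, with a median of -0.64. Of the ligands, Dll3 and Dll1 fell by 2.17 and 1.54, whereas Jag1 and Jag2 rose by 1.22 and 0.83. Of the receptors, Notch3 and Notch1 fell by 1.80 and 0.73, and Notch2 differed by -0.04. The targets Hey2, Nrarp, Hes5, Hey1 and Hes1 fell by 2.11, 1.93, 1.90, 1.33 and 0.68. Hes5, the main effector in radial glia, had 8.83, 8.90 and 9.03 at 13 d, against 10.09, 11.43 and 10.93 at 48 h (limma adjusted p = 9.5e-07), so its groups did not overlap. In the BMP list 8 of 20 fell and 5 rose, and without replicate 1 of 48 h 3 rose. Fitted to the 6 arrays alone, 4 fell and 4 rose. The BMP targets Id3 and Id1 fell by 1.88 and 1.34 and the receptor Bmpr1b by 1.30, while Id4 rose by 0.91.

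Wnt and Sonic hedgehog genes showed 9 of 29 lower (31%) and 6 higher (20.7%), against 20.4% and 16.8% of all probe sets, with a median of -0.03. Rspo3, an enhancer of Wnt signalling, had 8.96, 9.46 and 9.33 at 13 d, against 6.38, 6.40 and 6.23 at 48 h, a rise of 2.91 ± 0.15. The hedgehog receptor and target Ptch1 fell by 0.94 ± 0.07, while the target Gli1 differed by 0.22 and did not pass. Among EGF and FGF pathway genes 8 of 24 fell (33.3%) and 4 rose (16.7%), against 20.4% and 16.8% of all probe sets. Without replicate 1 of 48 h 9 fell and 6 rose. Egfr fell by 0.80 ± 0.10, whereas the phosphatase gene Dusp4 and the growth regulator Mycn rose by 2.98 ± 0.21 and 1.73 ± 0.12. Dusp6, Spry4 and Etv5, which follow ERK activity, did not pass. Immediate early genes rose in 3 of 20 cases and fell in 3 (15%), shares near or below those of all probe sets, and Nr4a3, an orphan nuclear receptor, rose by 1.77 ± 0.17. Genes tied to the timing of cortical progenitors rose in 8 of 15 cases and fell in 2. Lin28b and Igf2bp1, of early progenitors, rose by 0.88 and 1.51, and Sox9, of gliogenic ones, fell by 1.07. Hmga2, another early gene, had 9.91, 9.33 and 9.62 at 13 d, against 9.39, 8.42 and 8.83 at 48 h, a rise of 0.74 with overlapping groups.

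The cell cycle list for G2 and mitosis differed from that for S phase. Of 39 G2 and mitosis genes 28 fell and 0 rose, with a median of -0.44, while of 36 S phase genes 1 fell and 0 rose, with a median of -0.05. Nusap1, a spindle protein, had 10.29, 10.37 and 10.27 at 13 d, against 11.38, 11.30 and 11.33 at 48 h, and fell by 1.03 ± 0.11 (limma adjusted p = 3.3e-07). Cdca3, which promotes mitotic entry, fell by 0.87 ± 0.08, Ccnb2 by 0.72 and Cdc20, the activator of anaphase, by 0.44. Mki67 had 11.57, 11.26 and 11.41 at 13 d, against 11.68, 11.61 and 11.63 at 48 h, and its difference of -0.23 did not pass (limma adjusted p = 0.096), nor did that of Plk1 at -0.24. The fall in S phase was that of Gins4, a subunit of the replicative helicase, by 0.43 ± 0.12. These counts depended on the 48 h arrays: without replicate 1, 20 G2 and mitosis genes fell and 6 S phase genes rose and 1 fell, and without replicate 2, 10 S phase genes fell. Of 19 genes in the list for cell cycle exit 9 fell and 2 rose, with a median of -0.30. The inhibitors Cdkn2a, Cdkn2c and Cdkn2b were among those that fell, by 1.50, 1.38 and 1.32. Other inhibitors of that list are not given here. Ccnd1 and Ccnd2 differed by 0.08 and 0.09 and did not pass.

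Promoters of the G2 and mitosis genes were inspected for the letters of the CCAAT box and of the cell cycle homology region core TTTGAA, which many mitotic genes carry together near the start site. In RefSeq windows of 300 bases (build GRCm38.p6, 250 before and 50 after the annotated start), both motifs were present, on either strand, in 21 of 33 promoters of that list (63.6%), against 4 of 30 S phase promoters (13.3%), 953 of 15563 promoters of tested genes (6.12%) and 7.12% of all promoters in the table. The motifs can share at most 1 base where they meet. Among the members that fell, 16 of 23 promoters (69.6%) held both, against 5.74% for all genes that fell. The list was made of G2 and mitosis genes, so its share describes the list and not the difference with time. The Nusap1 window held neither, and that of Plk1, whose difference did not pass, held 1 of each. Those of Cdca3 (chr6:124829926-124830225, plus strand), which holds 3 CCAAT and 1 TTTGAA, and Cdc20 (chr4:118437294-118437593, minus strand), with 2 and 1, are shown because both genes fell, with the motif letters of either strand in capitals, 5′ to 3′. A match describes the letters only and does not show that a factor bound.
Cdca3 promoter: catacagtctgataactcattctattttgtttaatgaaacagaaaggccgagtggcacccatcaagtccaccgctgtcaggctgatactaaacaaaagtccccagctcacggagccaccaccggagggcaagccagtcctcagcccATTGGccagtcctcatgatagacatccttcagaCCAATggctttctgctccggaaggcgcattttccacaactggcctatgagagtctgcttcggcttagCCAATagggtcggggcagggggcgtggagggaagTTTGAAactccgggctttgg
Cdc20 promoter: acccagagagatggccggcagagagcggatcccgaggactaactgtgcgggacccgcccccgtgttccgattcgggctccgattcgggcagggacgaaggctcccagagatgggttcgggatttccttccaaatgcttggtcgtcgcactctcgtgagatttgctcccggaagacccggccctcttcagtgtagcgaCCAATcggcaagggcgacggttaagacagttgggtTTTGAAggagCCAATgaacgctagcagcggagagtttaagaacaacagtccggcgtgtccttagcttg

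Hypoxia-inducible genes were lower at 13 d although both groups were kept at 21% O2. Targets of the hypoxia-inducible factor HIF-1, which is degraded when oxygen is plentiful, fell in 23 of 30 cases and rose in 1, with a median of -1.0, and without replicate 1 of 48 h 25 fell and 0 rose. The mean over the list was 8.73 to 8.82 in the 13 d arrays, against 9.56 to 10.14 in the 48 h arrays. Slc16a3, the lactate exporter, had 7.47, 7.71 and 7.64 at 13 d, against 10.43, 11.33 and 11.23 at 48 h, and fell by 3.39 ± 0.30 (limma adjusted p = 1.8e-08), or 10.5-fold. Bnip3, a mitophagy receptor, had 8.77, 9.15 and 8.90 at 13 d, against 11.07, 12.38 and 12.20 at 48 h, and fell by 2.94 ± 0.30 (limma adjusted p = 1.2e-07). All 3 arrays of 13 d lay more than 1.5 units below each 48 h array in both genes. Egln3, an oxygen sensor that is itself a target, and Pdk1, which keeps pyruvate from the mitochondrion, fell by 2.56 and 2.54, Adm, a vasodilator peptide, by 2.53 and Vegfa, the angiogenic factor, by 1.88. Ndrg1 was the member that rose, by 0.71, and Car9 differed by -0.40 and did not pass.

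The core of the hypoxia response element is ACGTG, a motif added after results were known. It was present on either strand in 15 of 25 promoter windows of these genes (60.0%). Shares were 25.5% for all genes that fell, 21.7% for tested genes and 19.7% for all promoters. The list was made of HIF targets, so its share describes the list and not the difference with time. Windows of Bnip3 (chr7:138909457-138909756, minus strand) and Slc16a3 (chr11:120948817-120949116, plus strand) are shown because these genes had the largest falls of the list, with the motif letters of either strand in capitals. In Bnip3 the letters CACGTG hold the core once on each strand, overlapping, and in Slc16a3 it occurs at 2 places on the strand shown. The windows of Pdk1 and Adm held none, which says only that these letters are not in that stretch.
Bnip3 promoter: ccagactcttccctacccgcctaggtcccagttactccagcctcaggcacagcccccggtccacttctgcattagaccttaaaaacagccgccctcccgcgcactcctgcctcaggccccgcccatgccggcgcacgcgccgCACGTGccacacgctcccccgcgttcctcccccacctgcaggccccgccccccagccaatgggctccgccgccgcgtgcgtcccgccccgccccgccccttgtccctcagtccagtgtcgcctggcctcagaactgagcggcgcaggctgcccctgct
Slc16a3 promoter: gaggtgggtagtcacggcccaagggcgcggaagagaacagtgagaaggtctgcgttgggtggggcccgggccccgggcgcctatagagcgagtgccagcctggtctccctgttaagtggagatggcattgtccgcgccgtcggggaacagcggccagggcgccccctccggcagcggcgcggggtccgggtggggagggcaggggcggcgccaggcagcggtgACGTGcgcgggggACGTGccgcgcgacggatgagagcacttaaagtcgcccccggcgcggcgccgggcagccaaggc

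Glycolysis genes followed, 13 of 17 falling and 1 rising, with a median of -0.67. Pfkl, the liver-type phosphofructokinase, had 9.27, 9.18 and 9.02 at 13 d, against 10.47, 11.23 and 11.06 at 48 h, and fell by 1.76 ± 0.19 (limma adjusted p = 2e-07). Tpi1, the glucose transporters Slc2a1 and Slc2a3, Aldoa and Ldha fell by 1.45, 1.25, 1.25, 0.74 and 0.69. Eno2, the neuronal enolase, was the member that rose, by 1.05, and the hexokinase Hk1 differed by 0.02. Respiratory chain and ATP synthase genes moved less but in the same direction, 22 of 35 falling and 0 rising, with a median of -0.26. Sdhc and Sdha, subunits of complex II, fell by 0.77 ± 0.07 and 0.45 ± 0.05. Cholesterol genes fell in 10 of 21 cases and rose in 1, with a median of -0.33. Without replicate 1 of 48 h 14 fell, and in the fit of the 6 arrays alone 6 fell. The late synthesis enzymes Tm7sf2 and Ebp fell by 1.32 and 0.88, and the sterol exporter Abcg1 rose by 0.74 ± 0.08. Ribosomal protein genes differed little, 9 of 25 falling by 0.37 or less and 0 rising, with a median of -0.11, and without replicate 1 of 48 h 7 fell.

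Targets of p53 fell in 12 of 17 cases and rose in 2, with a median of -0.59. Eda2r, a receptor of the TNF receptor family, had 8.27, 7.94 and 7.71 at 13 d, against 10.26, 9.70 and 9.91 at 48 h, and fell by 1.98 ± 0.13. Phlda3, an inhibitor of Akt, and the stress gene Sesn2 fell by 1.47 ± 0.09 and 1.13 ± 0.09, while Mdm2, the feedback regulator of p53, differed by -0.15 and did not pass. Extracellular matrix genes fell in 8 of 31 cases (25.8%), not far from the 20.4% of all probe sets, and rose in 2. The metalloproteinase inhibitor Timp3 had 8.02, 7.85 and 7.85 at 13 d, against 10.87, 11.63 and 11.45 at 48 h, and fell by 3.41 ± 0.14 (limma adjusted p = 3.2e-13), and its relative Timp4 fell by 2.75 ± 0.16. The brain proteoglycan Bcan fell by 2.01 and Sparc by 1.37, whereas Col1a1 and Fn1 differed by -0.07 and 0.13 and did not pass. Interferon and antigen presentation genes fell in 5 of 23 cases (21.7%), a share near the 20.4% of all probe sets, and rose in 0, with B2m, the invariant class I subunit, falling by 1.12 ± 0.11 and the peptide transporter Tap1 by 0.73 ± 0.08.

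Markers of other cell types were measured in the same arrays. Of 21 microglia genes 7 rose and 0 fell, with a median of 0.16, and the mean over the list was 6.71 to 6.76 at 13 d, against 6.35 to 6.43 at 48 h. Lyz2, a lysozyme of macrophages, had 7.53, 8.02 and 7.68 at 13 d, against 5.91, 5.84 and 5.91 at 48 h, a rise of 1.85 ± 0.30, and the complement gene C1qb rose by 1.10 ± 0.18. Defining genes such as Cx3cr1, P2ry12 and Aif1 differed by 0.15, 0.09 and 0.09 and did not pass. Endothelial genes fell in 2 of 18 cases (11.1%, below the 20.4% of all probe sets). These were Ramp2 and Slc2a1, which is also counted among the hypoxia targets and glycolysis genes, and Pecam1 differed by -0.01. The pericyte and fibroblast list had 7 of 22 lower (31.8%) and 0 higher. Among the 7 were Pdgfra and Cspg4, which precursors share, and Acta2, a smooth muscle actin, which fell by 1.96. Of 7 red cell genes 1 rose (14.3%, against 16.8% of all probe sets), the embryonic globin gene Hbb-y by 1.43 ± 0.24. Without replicate 1 of 48 h Klf1 also fell, by 0.25. The part of these cells in the other differences was not tested.

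The same labelled times at 3% O2, in 6 other arrays, gave 4097 higher (17.5%) and 5776 lower (24.7%) probe sets, together 42.2%. Replicate 1 of 48 h at 3% O2 also stood apart, correlating at 0.993 with replicates 2 and 3, which correlated at 0.998. Without it 8855 probe sets were called at 3% O2. Across the 23410 probe sets, differences at 21% and 3% O2 correlated at a Pearson r of 0.90 and a Spearman rho of 0.78. Of the 8700 calls at 21% O2, 6743 were made in the same direction at 3% O2, which is 77.5% of them and 68.3% of the 9873 calls at 3%, and 50 went the opposite way. Neuronal, precursor and G2 lists kept their direction: at 3% O2 18 cytoskeleton genes rose and 0 fell, 0 precursor genes rose and 17 fell, and 0 G2 and mitosis genes rose and 23 fell. A test of the difference between the oxygen levels passed for 967 probe sets (4.13%), 521 with a more positive time difference at 21% O2 (2.23%) and 446 with a more negative one (1.91%). This count rested on single arrays and on the fit. It was 2970 without replicate 1 of 48 h at 21% O2 and 429 without replicate 3 of that group. Without replicate 1 of 48 h at 3% O2 it was 660. In a fit of the 12 cortex arrays it was 377. With the replicate number within each oxygen level added to that fit as a block it was 33. The numbers were not taken to pair the arrays, though 3 arrays per group cannot settle this.

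**Figure D4:**
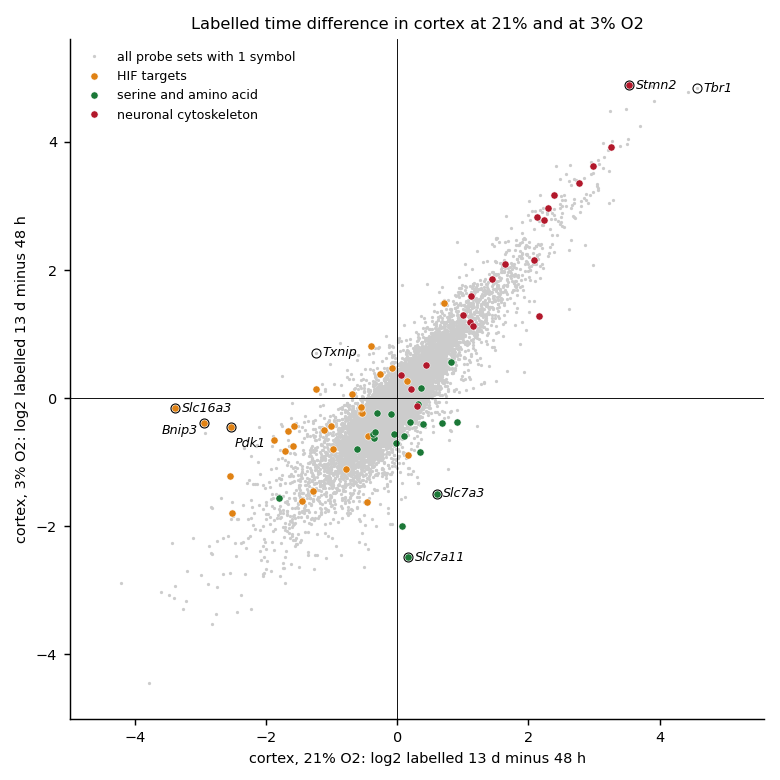
Log2 difference of 13 d minus 48 h in cortex at 21% O2 (x axis) and at 3% O2 (y axis) for 21789 probe sets with 1 symbol (grey), with hypoxia target, serine and amino acid, and neuronal cytoskeleton genes coloured. Hypoxia targets such as Slc16a3, at -3.39 and -0.16, lie left of the diagonal, and amino acid genes such as Slc7a11, at 0.16 and -2.48, lie below it.

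Among hypoxia targets 13 of 30 showed a more negative time difference at 21% O2 and 1 a more positive one. Single arrays left out gave 6 to 19 more negative members, the fewest without replicate 3 and the most without replicate 1 of 48 h at 21% O2, the fit of the 12 cortex arrays 9 and the block 3. Slc16a3 fell by 3.39 at 21% O2 and differed by -0.16 at 3% O2, where its means were 11.93 at 13 d and 12.09 at 48 h. The difference between the oxygen levels was -3.23 (limma adjusted p = 0.00035). Bnip3 and Pdk1, which fell by 2.94 and 2.54 at 21% O2, differed by -0.39 and -0.45 at 3% O2 and did not pass there. In glycolysis 6 of 17 genes had a more negative time difference at 21% O2 and 0 a more positive one, against 11 and 0 without replicate 1 of 48 h at 21% O2 and 0 and 0 with the block. Ldha fell by 0.69 at 21% O2 and differed by -0.03 at 3% O2.

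Serine synthesis and amino acid transport genes went the other way, 10 of 21 having a more positive time difference at 21% O2 and 0 a more negative one. These counts were 7 and 0 in the fit of the 12 cortex arrays and 2 and 0 with the block. Without replicate 1 of 48 h at 21% O2 they were 13 and 1. At 21% O2 5 rose and 6 fell, with a median of 0.10 (7 and 6 without replicate 1 of 48 h), and at 3% O2 1 rose and 14 fell, with a median of -0.56. Slc7a11, the cystine importer, had 8.47, 8.36 and 8.32 at 13 d, against 8.27, 8.12 and 8.26 at 48 h at 21% O2, a difference of 0.16 ± 0.17 that did not pass. At 3% O2 it fell by 2.48 ± 0.17, and the levels differed by 2.64 (limma adjusted p = 1.6e-05). Targets of the antioxidant factor NRF2 had 6 of 19 more positive at 21% O2, and stress response genes of the endoplasmic reticulum 5 of 24. In both lists 0 were more negative, and with the block the more positive members were 1 and 0. Without replicate 1 of 48 h at 21% O2 they were 7 and 7. Without replicate 3 of that group 3 NRF2 targets were more positive. Adcy8, an adenylyl cyclase, differed by 0.07 at 21% O2 and rose by 1.77 at 3% O2. Plagl1, an imprinted zinc finger factor, rose by 1.50 ± 0.17 at 21% O2 and differed by 0.27 at 3% O2. Dll1 and Hes5 of the Notch pathway fell more at 21% O2 than at 3% O2, by 1.54 against 0.39 and by 1.90 against 0.59, and both differences passed, though that of Hes5 did so under 11 of 21 other settings and that of Dll1 under 20.

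Set beside midbrain cultures at 21% O2, the cortex difference ran in the opposite direction for most genes, under the labels as given. The midbrain 13 d arrays carry the label of array run 1 and all other arrays that of run 2, so in midbrain time and run cannot be told apart, and the values are given without a test. Across the 23410 probe sets the cortex and midbrain differences correlated at -0.82 (Pearson) and -0.74 (Spearman), and 17412 (74.4%) had opposite signs. Of the 3929 probe sets that rose in cortex, 3602 (91.7%) were lower in midbrain at 13 d than at 48 h, and of the 4771 that fell, 4410 (92.4%) were higher. Median differences were 1.87 in cortex and -3.10 in midbrain for the neuronal cytoskeleton, -1.66 and 1.95 for oligodendrocyte precursors, -1.19 and 1.89 for astrocytes, and -0.44 and 1.79 for G2 and mitosis. Some cortical and ventral forebrain genes were near 0 in midbrain: Tbr1 differed by 4.57 in cortex and 0.07 in midbrain, Dlx5 by 3.04 and -0.03, Fezf2 by 2.66 and 0.00, and Epha5, an ephrin receptor, by 1.90 and 0.04. The opposite sign does not rest on replicate 1 of 48 h in cortex for the neuronal list, whose median without it was 1.67.

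**Figure D5:**
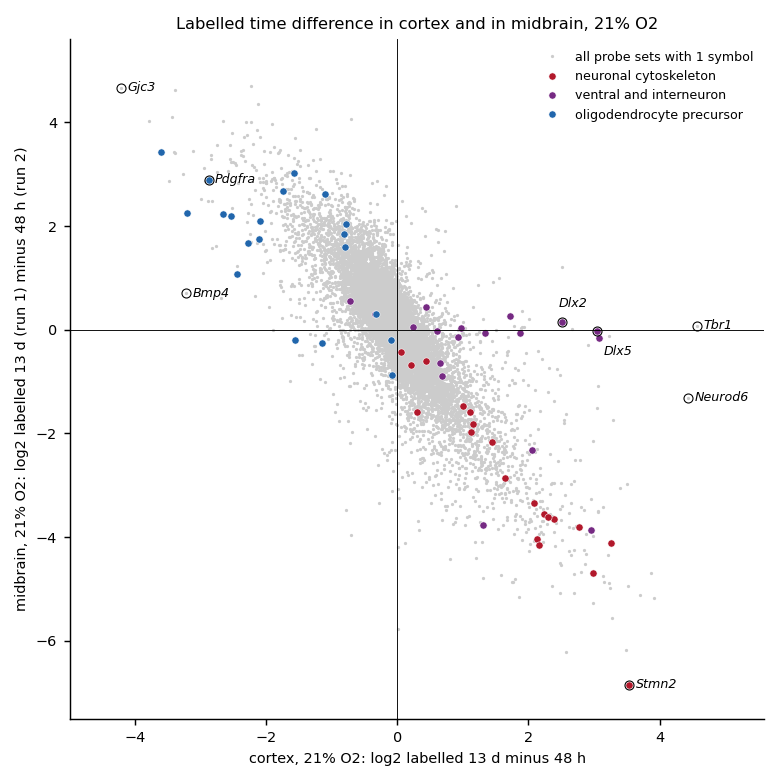
Log2 difference of 13 d minus 48 h at 21% O2 in cortex (x axis) and midbrain (y axis) for 21789 probe sets with 1 symbol (grey), with neuronal cytoskeleton, ventral forebrain and oligodendrocyte precursor genes coloured. Most points fall in the upper left and lower right quadrants, and Tbr1 and Dlx5 lie on the right near 0 in midbrain.

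MicroRNA genes, which the array reads through probe sets at their loci and not as mature arms, were described last. Each microRNA represses transcripts that pair with its seed, bases 2 to 8 of the mature strand. The mature sequences of those named here, from RefSeq (build GRCm38.p6), are shown so that their seeds, in capitals, can be compared, 5′ to 3′. They are mmu-miR-331-3p (chr10:93963783-93963803, minus strand), mmu-miR-138-5p (chr8:94324312-94324334, plus strand), mmu-miR-485-3p (chr12:109734946-109734967, plus strand), mmu-miR-382-5p (chr12:109733781-109733802, plus strand), mmu-miR-377-3p (chr12:109740553-109740574, plus strand), mmu-let-7c-5p (chr16:77599672-77599693, plus strand), mmu-let-7e-5p (chr17:17830366-17830387, plus strand), mmu-let-7g-5p (chr9:106178846-106178867, plus strand) and mmu-miR-219a-5p (chr2:29845689-29845709, minus strand, the Mir219a-2 copy).
mmu-miR-331-3p: gCCCCUGGgccuauccuagaa
mmu-miR-138-5p: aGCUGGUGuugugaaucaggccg
mmu-miR-485-3p: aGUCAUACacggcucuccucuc
mmu-miR-382-5p: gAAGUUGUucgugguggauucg
mmu-miR-377-3p: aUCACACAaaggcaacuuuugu
mmu-let-7c-5p: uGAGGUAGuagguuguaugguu
mmu-let-7e-5p: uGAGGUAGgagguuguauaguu
mmu-let-7g-5p: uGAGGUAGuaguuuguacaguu
mmu-miR-219a-5p: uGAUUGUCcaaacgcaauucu

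Of 298 probe sets for microRNA genes 33 were higher at 13 d (11.1%) and 15 lower (5.03%), with a median of 0.02, against 16.8% higher and 20.4% lower among all probe sets. Mature sequences were found for 31 of the 33. Host transcripts of microRNAs were counted apart, and 4 of their 7 probe sets rose and 0 fell, with a median of 0.43. Mir331 had 7.54, 7.33 and 7.27 at 13 d, against 6.44, 6.52 and 6.48 at 48 h, a rise of 0.90 ± 0.08 (limma adjusted p = 2.7e-08). Mir138-2, a brain-enriched microRNA gene, had 7.97, 7.48 and 7.84 at 13 d, against 6.94, 7.12 and 6.91 at 48 h, a rise of 0.77 ± 0.12. One of these hosts, Mir670hg, rose by 0.87 ± 0.10. Of the let-7 family, Mirlet7c-1 and Mirlet7e rose, by 0.47 and 0.40, and Mirlet7g fell by 0.17. The 3 share the seed GAGGUAG. In the fit of the 6 arrays alone Mirlet7g did not pass (limma adjusted p = 0.068). Mir219a-2, whose product promotes oligodendrocyte differentiation, had 6.49, 6.67 and 6.66 at 13 d, against 6.63, 7.84 and 7.85 at 48 h. It fell by 0.83 ± 0.20, with replicate 1 of 48 h among the 13 d values. In the fit of the 6 arrays alone Mir219a-2 did not pass (limma adjusted p = 0.11), and without replicate 1 of 48 h it fell by 1.24.

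The rises were denser on chromosome 12, where 15 of 47 microRNA gene probe sets rose and 0 fell, against 18 and 15 of 251 elsewhere. Most lie in the imprinted Dlk1 to Dio3 region, in which the maternal chromosome expresses long noncoding RNAs and a large microRNA cluster. This region was singled out after its values had been seen. Of its 47 single-symbol probe sets 17 rose and 0 fell, with a median of 0.20, against 16.8% higher and 20.4% lower among all probe sets. Meg3, a maternally expressed noncoding RNA, had 11.11, 10.17 and 10.86 at 13 d, against 7.89, 8.45 and 8.34 at 48 h, a rise of 2.48 ± 0.20 (limma adjusted p = 4.6e-09). Its neighbour Rian rose by 1.41 ± 0.17. Mir382 had 7.36, 6.05 and 6.48 at 13 d, against 5.41, 5.43 and 5.44 at 48 h, a rise of 1.21 ± 0.19, and Mir377 and Mir485 rose by 1.02 and 0.83. The paternally expressed coding genes Dlk1 and Rtl1 differed by 0.05 and 0.09 and did not pass, nor did Dio3 at 0.04. Replicate 1 of 13 d had the highest value of its group in Meg3, Mir382 and Mir377. At 3% O2 the median over the region was 0.27, and in midbrain it was -0.99.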

How the data were processed

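Arrays were hybridised with biotin-labelled cDNA made from total RNA, according to the labels' protocols. The authors deposited log2 values, which the labels describe as normalized. How background was corrected and arrays were normalized is not stated in any source used here. Differences between groups are therefore measured against whatever that step held equal. The values hold no depth or signal over background, and 3 arrays per group limit the precision. Symbols came from the platform's annotation, with 21789 probe sets carrying 1 symbol, 1621 several and 5446 unnamed here. The gene table of RefSeq assembly GRCm38.p6 held the Entrez numbers of 21698.

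Limma 3.58.1 in R 4.3.3 fitted 8 group means to all 24 arrays (16 residual degrees of freedom), with eBayes, two-sided tests and Benjamini-Hochberg adjustment within each comparison. The members and the 45 gene lists were chosen with earlier results of these data known, so lists are described by counts and medians, without a test. A gene with several probe sets was represented by the brightest over all arrays, and 935 of 1007 symbols were measured. Named genes (149) were the 12 largest rises and 12 largest falls without overlap, per list the 2 genes of smallest p, a panel, 4 microRNA probe sets and the 6 largest differences between oxygen levels each way. Clone-type, Xist and Y-linked symbols were passed over, and other list members are given where their list is described. Same-numbered arrays of 13 d and 48 h deviated with correlations of 0.04, 0.03 and -0.09. Over the 6 pairs of cortex groups such correlations lay between -0.37 and 0.42. In no pair of groups were all 3 above 0.1, so the numbers were not taken to pair arrays. Correlations over 3 arrays per group cannot settle whether they do. No array duplicated another. Alternatives covered the probe filter, normalization, variance model, arrays fitted, array weights, the replicate block and each array left out.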

Additional observations from a re-analysis of the deposited data

Results flagged for a closer look

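The time difference in cortex depended on the oxygen level for 967 probe sets, as tested by the difference between the 21% and 3% O2 contrasts in limma with an adjusted p under 0.05. The count is not stable: it was 377 in the fit of the 12 cortex arrays and 33 with the replicate block. Of the 34 named genes with such a difference, 23 still passed in that fit of 12 arrays and 9 with the block, and none of the 34 changed sign under the alternatives run. Vegfa and Nkain2 passed under 7 of 21 alternatives, Gad2 under 10, Ramp2 under 10 of 20, and Grin2b and Hes5 under 11. These alternatives for single genes were chosen after seeing the data. Values below are the time difference at 21% O2 minus that at 3% O2, on the log2 scale.

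A more negative time difference at 21% O2 was found for many hypoxia and glycolysis genes: Slc16a3 with -3.23, Bnip3 with -2.56, Pdk1 with -2.08, Slc2a1 with -1.39, Egln3 with -1.35, Pfkl with -1.33, Vegfa with -1.22, Ldha with -0.67 and Aldoa with -0.56. Txnip, which restrains glucose uptake, had -1.95. The Notch genes Hes5 and Dll1 had -1.31 and -1.16, Btg2 had -0.99 and the kinase gene Prkcq -1.18. Some neuronal genes rose at both oxygen levels and less at 21% O2, with Stmn2 at -1.35, Cdk5r1 at -1.07, Islr2 and the Adgrl2 probe set of the largest rise at -1.02 each, Syt1 at -0.93, Npy at -0.86, Celf3 at -0.67, Grin2b at -0.65 and Gad2 at -0.60. By list, 2 of 20 neuronal cytoskeleton and 2 of 23 synaptic vesicle genes had a more negative difference, against 1.91% of all probe sets. Neuronal RNA-binding genes had 4 of 17 more negative and 0 more positive. The cytoskeleton and vesicle counts were 10 and 9 without replicate 1 of 48 h at 21% O2, and 0 and 1 with the block. The neurofilament gene Nefl rose more at 21% O2, with 0.88. Adcy8 had -1.70 and Nkain2 -1.74.

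A more positive time difference at 21% O2 was found for the amino acid transporters Slc7a11 with 2.64, Slc7a3 with 2.09 and Slc38a4 with 2.06. Clic5 had 2.12, Nptx1 1.91, H60b 1.88, Plagl1 1.24 and Ramp2 0.50. For Clic5, Nptx1, H60b, Slc38a4, Slc7a11 and Slc7a3 the time difference at 21% O2 itself did not pass the threshold, and at 3% O2 they fell, by 2.63, 2.36, 1.96, 1.99, 2.48 and 1.49.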

How the results depend on the processing

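The 8700 calls at 21% O2 ranged from 7536 to 8675 when single arrays were left out. Under other scalings, variance models, array subsets and weights they ranged from 7079 to 12009. At 3% O2 the 9873 calls became 9410 to 11249 under these, and 8777 to 9293 with arrays left out. The probe filters changed the number tested as well. The brighter probe sets only, a smaller number, gave 6956 calls at 21% O2 and 7399 at 3% O2. All 28856 probe sets gave 9659 and 11313. Quantile normalization moved the higher share at 3% O2 to 46.9%, against 41.5%. With the replicate block, whose numbers were not taken to pair the arrays, 6295 probe sets passed at 21% O2, 8553 at 3% O2 and 33 for the difference between oxygen levels. That difference was the unstable result: its 967 calls became 377 in the fit of the 12 cortex arrays, 572 in the 18 arrays of run 2 and 4323 with array weights, which gave replicate 1 of 48 h at 21% O2 a weight of 0.225. Left-out arrays gave 429 to 2970. The cause was not tested. With the block at 21% O2 the higher and lower members were 2 and 5 for BMP, 1 and 5 for cholesterol, 3 and 1 for upper-layer, 3 and 0 for forebrain and 0 and 5 for NRF2 genes, which in the fit of all arrays had 5 and 8, 1 and 10, 5 and 2, 4 and 2, and 2 and 6. Of 130 named genes past the threshold, 124 kept call and direction under every alternative run. Other list members and microRNA genes given in the text, outside the 149 named by rule, were not part of this count. Gfap, Bmp4, Cdkn1c, En1, Mbp and Hmga2 lost the call in at least 1. Genes that had not passed changed sign: with array weights Adcy8 was -0.0062, H60b 0.0399 and Pecam1 0.042. With single arrays left out, Actl6a ranged from -0.0661 to 0.265, Adcy8 from -0.0229 to 0.132, Ccnd1 from -0.146 to 0.304, H60b from -0.361 to 0.249 and Pecam1 from -0.081 to 0.0548. Groups of 3 arrays, the unstated normalization and the unstated origin of the arrays limit all values.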

Other observations

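Small nucleolar RNA genes guide the modification of ribosomal and splicing RNA. Of 23 probe sets with a Snora symbol 4 were higher (17.4%) and 3 lower (13%) at 13 d, with a median of -0.04, and of 33 with a Snord symbol 1 was higher (3.03%) and 5 lower (15.2%), with a median of -0.06. Among all probe sets 16.8% were higher and 20.4% lower.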
